A study of Arundinella anomala and Arundinella fluviatilis and Arundinella hirta with 8 samples.

Results

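*Imperata cylindrica*, a C4 grass, was set against 3 *Arundinella* species, *A. anomala*, *A. fluviatilis* and *A. pubescens*, as 4 of the 8 leaf RNA libraries of a study of C4 grasses. The 4 libraries were chosen by species and, within *Arundinella*, by extent of listing. The 3 *Arundinella* were taken because they list the most genes, so the choice used the extent of listing but no gene's difference. It was made with earlier results of these data known. Each library came from whole leaf of wild type, mature plants, from fresh tissue of the third leaf, and all plants shared a growth room with long days. There was 1 library per species, so no value of *I. cylindrica* has a replicate. The spread used below is that between the 3 *Arundinella* species, which share ancestry, and species, genus and library cannot be told apart. Levels are in FPKM, fragment numbers normalised to the length of the sequence and to library size. They are listed under maize gene models and were summed to 26274 genes. No counts are given, so the depth is unknown.

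In C4 leaves, PEP carboxylase in mesophyll cells fixes bicarbonate into a C4 acid, and pyruvate orthophosphate dikinase (PPDK) supplies its substrate. The acid moves to the bundle sheath, where a decarboxylase such as NADP-malic enzyme releases CO2 beside Rubisco. Carbonic anhydrase makes the bicarbonate, and carriers in the chloroplast envelope move acids and triose phosphates. The deposited files pair no gene model with a name. The enzyme names given here for 26 maize gene models come from general knowledge of maize and were not checked against an annotation. All other genes are given by identifier only, with no role.

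*I. cylindrica* listed 10198 genes above 0, or 38.8% of the table, against 20388 to 20607 in the 3 *Arundinella*. Its values summed to 349576 FPKM, against 801499 to 829005. The 3 were taken for their extent of listing, so the choice itself favours this gap. Of the libraries left out, *A. hirta* listed 10697 genes with a sum of 319415 FPKM, and *A. nepalensis* 18023 with 701722. *Bothriochloa ischaemum* listed 9681 with 284445, and *Capillipedium parviflorum* 8142 with 212357. The 10 most abundant genes of *I. cylindrica* held 22.8% of its sum, against 9.96% to 11.5% in the 3 *Arundinella*. In 8730 genes every library of the 4 was above 0, which is 85.6% of what *I. cylindrica* listed. They held 86.2% of its summed FPKM and 53.3% to 56.0% of the sums of the 3 *Arundinella*.

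Only some of the leaf markers were listed above 0 in *I. cylindrica*. Of 5 mesophyll genes, 3 were above 0, with a summed level of 21690 FPKM against 14697 to 55756 in the 3 *Arundinella*. Nearly all of the 21690 came from PEP carboxylase, at 11746 FPKM, and the more abundant PPDK model, at 9941. Of 6 bundle sheath genes, 3 were above 0, with a summed level of 4086 FPKM against 5454 to 10156. NADP-malic enzyme alone held 4049 of the 4086 FPKM. The Rubisco small subunit gene GRMZM2G113033 was at 35.8 FPKM against 1380 to 3209. Those at 0 in *I. cylindrica* were carbonic anhydrase 1 and NADP-malate dehydrogenase of the mesophyll, and PEP carboxykinase and both Rubisco activase genes of the bundle sheath. Over the whole table, 48.2% of genes above 0 in the 3 *Arundinella* were listed at 0 in *I. cylindrica*, so the markers stood near the background. In whole leaf RNA, fewer cells of a type and less RNA per cell cannot be told apart. Nor is a listed 0 read here as absence of a transcript, because how fragments were tied to maize models is not given.

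PEP carboxylase, the more abundant PPDK model and NADP-malic enzyme were abundant in *I. cylindrica* and near or within the range of the 3 *Arundinella*. In *A. hirta* and *A. nepalensis*, which were left out, the highest value of these genes was 137 FPKM, for PPDK in *A. nepalensis*. PEP carboxylase and NADP-malic enzyme were listed at 0 in *A. hirta*. Carbonic anhydrase 1, NADP-malate dehydrogenase and PEP carboxykinase were listed at 0 in *I. cylindrica*. The C4 PEP carboxylase (GRMZM2G083841), the carboxylase of the mesophyll, was the most abundant gene of *I. cylindrica*. It was at 11746 FPKM in *I. cylindrica*, 2285 in *A. anomala*, 24807 in *A. fluviatilis* and 7380 in *A. pubescens*. The value of *I. cylindrica* lay inside the range of the others, with a log2 difference from their mean of 0.65 ± 1.76 (SE; limma, adjusted p = 0.852). PPDK, in the more abundant of its 2 gene models (GRMZM2G097457), was at 9941 FPKM, against 12344, 21851 and 5580 in the same order. It too lay inside their range, and its level was 0.846 of that of PEP carboxylase in *I. cylindrica*, 0.881 in *A. fluviatilis* and 0.756 in *A. pubescens*, but 5.40 in *A. anomala*. The other PPDK model (GRMZM2G306345) was at 3.37 FPKM, against 3.32 to 6.76.

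The decarboxylases differed from each other. The NADP-malic enzyme of the C4 cycle (GRMZM2G085019), which decarboxylates malate beside Rubisco, was at 4049 FPKM in *I. cylindrica*, 1985 in *A. anomala*, 3043 in *A. fluviatilis* and 1695 in *A. pubescens*. *I. cylindrica* was the highest of the 4. Its log2 difference from the mean of the 3 others was 0.90 ± 1.15 (SE) and did not pass (limma, adjusted p = 0.672). PEP carboxykinase (GRMZM2G001696), the other decarboxylase on the list, was listed at 0 in *I. cylindrica* and at 1.25 FPKM in *A. pubescens*, against 2772 in *A. anomala* and 3160 in *A. fluviatilis*. On this gene *I. cylindrica* stood beside *A. pubescens*, and the 3 *Arundinella* did not agree among themselves. A further NADP-malic enzyme gene (GRMZM2G122479) was at 64.1 FPKM, within the range of 21.3 to 2280 of the 3 others.

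Carbonic anhydrase 1 (GRMZM2G121878) was listed at 0 in *I. cylindrica* and stood at 1083 FPKM in *A. anomala*, 6685 in *A. fluviatilis* and 1684 in *A. pubescens*. Of the *Arundinella* left out, *A. nepalensis* also listed it at 0, and *A. hirta* had 1452 FPKM. With the 2 further carbonic anhydrase genes of the list (GRMZM2G348512 and GRMZM2G094165) the sum was 3.82 FPKM in *I. cylindrica*, against 1525 to 6701. Carbonic anhydrase genes outside the list were not summed. NADP-malate dehydrogenase (GRMZM2G129513), the malate-forming enzyme of the mesophyll chloroplast, was listed at 0, against 852, 2410 and 49.3 FPKM. It was also listed at 0 in *A. hirta*, and stood at 258 FPKM in *A. nepalensis*. Aspartate aminotransferase (GRMZM2G094712), which makes the acid aspartate, was listed at 0 against 96.0 to 195 FPKM. All 3 *Arundinella* values lay above *I. cylindrica* for these enzymes, apart from the carbonic anhydrase GRMZM2G094165, which stood at 3.82 FPKM against 1.62 in *A. fluviatilis*.

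Alanine aminotransferase (GRMZM2G088064), which interconverts alanine and pyruvate, was at 8.72 FPKM in *I. cylindrica*, 413 in *A. anomala*, 653 in *A. fluviatilis* and 187 in *A. pubescens*. It was lower by a log2 difference of −5.25 ± 0.89 (SE; limma, adjusted p = 0.0222). The call ended with median-of-ratios scaling, with a difference of −4.32 (adjusted p = 0.0833), and without *A. anomala* (adjusted p = 0.0622). With all 5 *Arundinella* libraries the difference was −3.32 (limma, adjusted p = 0.647), and *A. hirta*, at 0.99 FPKM, stood below *I. cylindrica*. As deposited, its value in the lowest of the 3 *Arundinella* was 21.4 times that in *I. cylindrica*.

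Rubisco and its activase showed a similar gap. The Rubisco small subunit gene GRMZM2G113033 was at 35.8 FPKM in *I. cylindrica*, 1380 in *A. anomala*, 2359 in *A. fluviatilis* and 3209 in *A. pubescens*. *I. cylindrica* lay below all 3 *Arundinella* here, as it did for 58.9% of the 8730 genes above 0 in all 4. The log2 difference was −5.89 ± 0.97 (SE; limma, adjusted p = 0.0213), and the groups did not overlap. With median-of-ratios scaling the difference was −4.92 and the adjusted p 0.0752, and without *A. anomala* the adjusted p was 0.0545. With all 5 *Arundinella* libraries the difference was −6.59 (limma, adjusted p = 0.0833). Rubisco activase (GRMZM2G162200), which frees Rubisco of bound inhibitors, was listed at 0 against 152, 1581 and 521 FPKM. It was also listed at 0 in *A. hirta*, and stood at 7676 FPKM in *A. nepalensis*. A second small subunit gene (GRMZM2G098520) was at 0.97 FPKM and at most 5.31 in the others, so the sum of both small subunit genes was 36.7 FPKM against 1380 to 3210.

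The transporters split. The triose phosphate translocator (GRMZM2G070605), the route of fixed carbon out of the chloroplast, was at 2253 FPKM, inside the range of 1945 to 3538 of the 3 *Arundinella*. The dicarboxylate transporter DiT2 (GRMZM2G086258) was at 33.9 FPKM in *I. cylindrica*, 4.95 in *A. anomala*, 7.59 in *A. fluviatilis* and 6.84 in *A. pubescens*. It lay above all 3, and its log2 difference from their mean, 2.24 ± 0.70 (SE), did not pass (limma, adjusted p = 0.112). Of the *Arundinella* left out, *A. nepalensis* had DiT2 at 34.3 FPKM, the level of *I. cylindrica*, and *A. hirta* had 3.53. The 2-oxoglutarate/malate transporter DiT1 (GRMZM2G383088) was listed at 0 against 122, 829 and 177 FPKM. DiT1 was also listed at 0 in *A. hirta*, and stood at 8.64 FPKM in *A. nepalensis*. The PEP/phosphate translocator (GRMZM2G174107) was listed at 0 against 14.5 FPKM in *A. pubescens* and 24.8 in *A. anomala*.

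**Figure D1:**
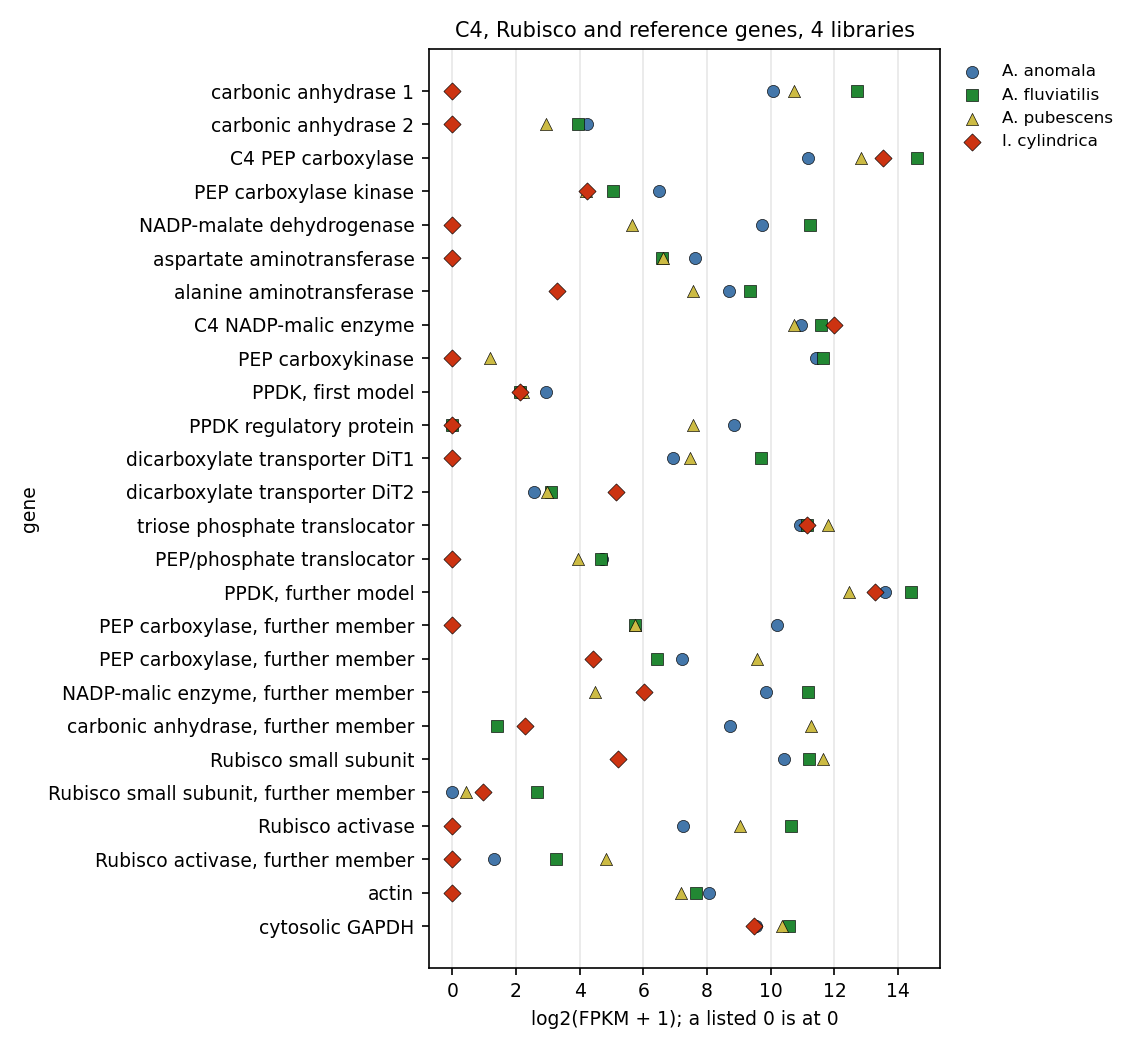
Levels of the 26 named genes on the log2(FPKM + 1) scale (horizontal axis), 1 point per library, with no error because each species had 1 library. PEP carboxylase, the triose phosphate translocator and the more abundant PPDK model of *I. cylindrica* sit among the *Arundinella* points and NADP-malic enzyme just above them, while 12 of its points lie at 0.

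The regulators were also split. PEP carboxylase kinase (GRMZM2G178074), which phosphorylates PEP carboxylase, was at 17.9 FPKM, against 89.7, 32.3 and 17.4. The PPDK regulatory protein (GRMZM2G131286), which switches PPDK with light, was listed at 0 in *I. cylindrica* and in *A. fluviatilis*, against 461 FPKM in *A. anomala* and 187 in *A. pubescens*. Of further PEP carboxylase genes, GRMZM2G074122 was listed at 0 against 51.9 to 1181 FPKM, and GRMZM2G473001 was at 20.4 FPKM against 84.8 to 765. Summed over the 3 listed genes of the family, PEP carboxylase was at 11766 FPKM in *I. cylindrica*, against 3615, 24945 and 8198. Of the reference genes, actin (GRMZM2G126010) was listed at 0 against 144 to 268 FPKM, and cytosolic glyceraldehyde-3-phosphate dehydrogenase (GRMZM2G046804) was at 711 FPKM against 747 to 1510. A listed 0 is therefore not read here as absence of a transcript.

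Of the 15 genes listed for the C4 cycle, 14 were above 0 in all 3 *Arundinella*, and 7 of those 14 were listed at 0 in *I. cylindrica*. The 15 hold the less abundant PPDK model, GRMZM2G306345. The more abundant one, GRMZM2G097457, was listed with further family members and is not in these counts. Over the whole table, 8126 of 16856 genes above 0 in the 3 *Arundinella* were listed at 0 in *I. cylindrica* (48.2%), so the C4 genes stood near the background. The other 7 C4 genes, above 0 in all 4, had a median log2 difference of −0.14, beside −0.84 over all 8730 genes. Among these 7, *I. cylindrica* lay above the range of the 3 others for NADP-malic enzyme and DiT2, below it for alanine aminotransferase and inside it for 4. Over the 8730 genes it lay above all 3 for 9.14% and below all 3 for 58.9%. Alanine aminotransferase was the 1 member that passed, against 4.64% of all genes tested.

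The share of genes listed at 0 in *I. cylindrica* did not keep falling with the level in *Arundinella*. It was 86.7% of 308 genes under 1 FPKM, 59.0% of 6821 genes from 1 to 10 FPKM and 39.4% of 8722 genes from 10 to 100 FPKM. Above that it was 39.8% of 953 genes from 100 to 1000 FPKM and 38.5% of 52 genes at 1000 FPKM or more. The share was thus close to level over the 3 upper classes.

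**Figure D2:**
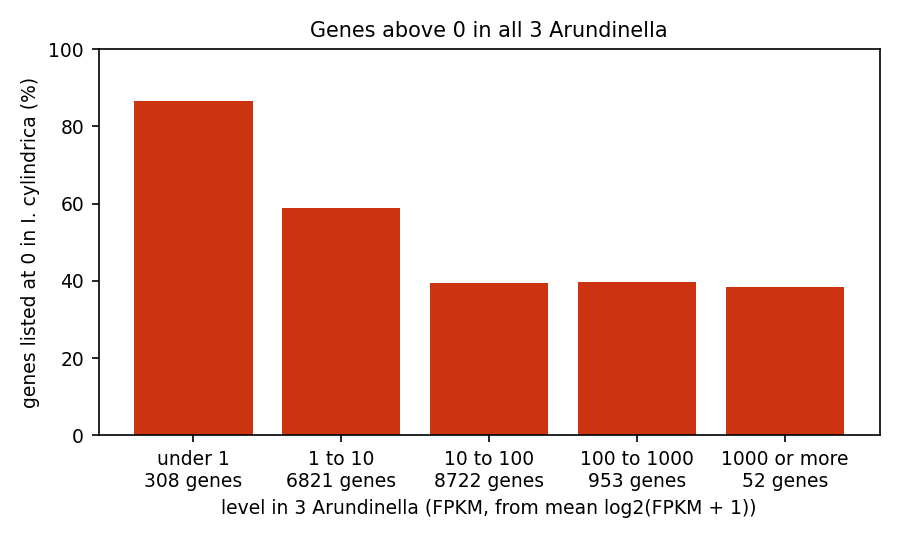
Share of genes listed at 0 in *I. cylindrica* (vertical axis, percent) by their level in the 3 *Arundinella* (horizontal axis, FPKM from the mean log2(FPKM + 1)), over 16856 genes above 0 in all 3. The bars fall from 86.7% to 39.4% and then stay at 39.8% and 38.5%.

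The most abundant genes of *I. cylindrica* were mostly abundant in the 3 *Arundinella* as well. They are described here without a test because they were picked for their level. The top 20 started at 2313 FPKM and held 33.0% of its summed FPKM, and they held 6.58% of the sum of *A. anomala*, 10.6% of that of *A. fluviatilis* and 8.62% of that of *A. pubescens*. Of the 20, 14 were among the top 100 of each of the 3 *Arundinella*. The C4 PEP carboxylase, the more abundant PPDK model and NADP-malic enzyme took ranks 1, 3 and 13, and the triose phosphate translocator followed at rank 22. The other 17 have no name here.

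Of the 20, 16 were above 0 in all 4 libraries: *I. cylindrica* lay above all 3 *Arundinella* for 10 of them, within their range for 6 and below it for 0. Over all 8730 genes it lay above for 9.14% and below for 58.9%, but a gene picked for a high level in *I. cylindrica* is placed towards the upper end by that choice. GRMZM2G149428, at rank 2, was at 10178 FPKM in *I. cylindrica*, 1106 in *A. anomala*, 3181 in *A. fluviatilis* and 5536 in *A. pubescens*. GRMZM2G092311, at rank 4, was at 9095 FPKM, against 1734, 2640 and 5357. Both lay above all 3 *Arundinella*, among which *A. pubescens* was the highest for both. Within the range stood GRMZM2G046284, at 5009 FPKM against 4032 to 8636, and GRMZM2G337113, at 2565 against 2364 to 8856. Of the 4 others, 2 were listed at 0 in all 3 *Arundinella* and 2 in some of them.

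**Figure D3:**
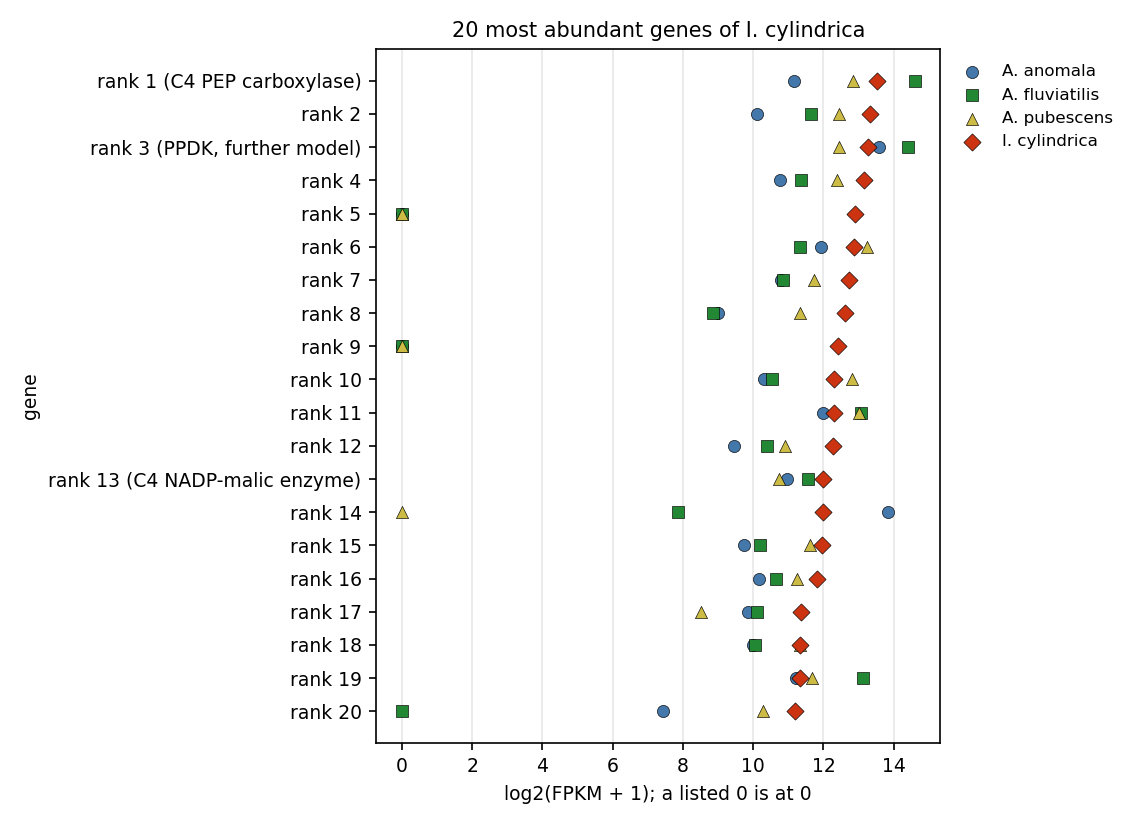
Levels of the 20 most abundant genes of *I. cylindrica* on the log2(FPKM + 1) scale (horizontal axis), in rank order from the top, 1 point per library. Ranks 5 and 9 are at 0 in all 3 *Arundinella*, and ranks 1, 3, 6, 10, 11, 14 and 19 lie within the *Arundinella* range, for rank 14 a range that starts at a listed 0.

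Of the 20 most abundant genes of *A. anomala*, 12 were listed at 0 in *I. cylindrica*, as were 10 of those of *A. fluviatilis* and 9 of those of *A. pubescens*. These counts are to be read beside the 48.2% of all genes above 0 in the 3 *Arundinella*, and the 38.5% of those at 1000 FPKM or more, that were listed at 0 in *I. cylindrica*. Between the 3 *Arundinella* libraries the same count ran from 0 to 2, but they were taken for their extent of listing, which favours low counts.

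Among the 8730 genes above 0 in all 4, most were lower in *I. cylindrica*. The median log2 difference from the mean of the 3 *Arundinella* was −0.84, and it was −0.98, −0.76 and −0.84 against *A. anomala*, *A. fluviatilis* and *A. pubescens* alone (SD 0.11, n = 3). The difference was negative for 79.1% of genes, and 80% of genes had a difference from −2.61 to 0.57. *I. cylindrica* lay beyond all 3 by at least 1 log2 unit for 3656 genes on the low side (41.9%) and 399 on the high side (4.57%). The same count for *A. anomala* against the other 3 libraries was 365 low and 1753 high, for *A. fluviatilis* 784 low and 1285 high, and for *A. pubescens* 547 low and 1589 high. The other 3 libraries here include *I. cylindrica*. Its own shift favours high counts over low ones, so these counts are no independent baseline.

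The shift depends on the scaling. Scaling all libraries by their median ratio put the median at 0.021, and scaling them to the same summed FPKM put it at 0.23. The genes beyond all 3 by 1 log2 unit then numbered 1482 high and 1769 low, and 1989 high and 1478 low. Single genes are therefore to be read against the shift. In 10 classes of equal size by mean level over the 4 libraries, the median difference ran from −0.44 in the lowest class to −0.99 in the fifth, and was −0.68 in the highest.

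**Figure D4:**
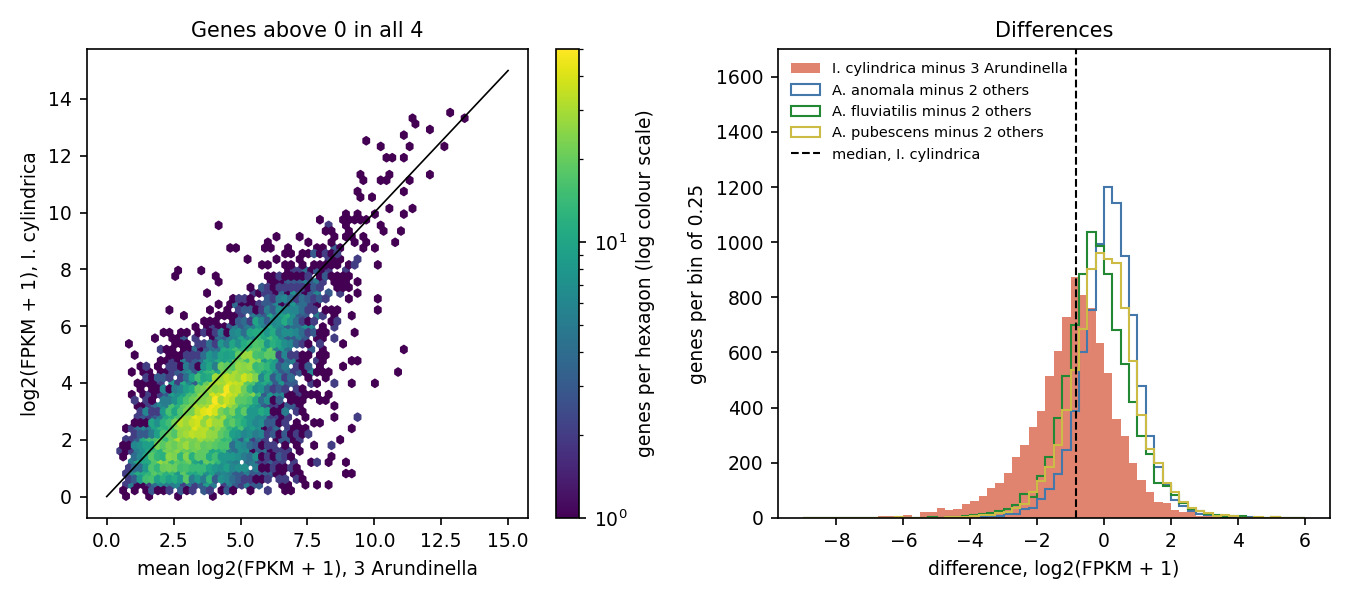
Left, level in *I. cylindrica* against the mean of the 3 *Arundinella* for 8730 genes (both axes log2(FPKM + 1)), with the line of equality and colour for genes per hexagon. Right, distribution of the differences, filled for *I. cylindrica* and as lines for each *Arundinella* against the other 2, with the median of *I. cylindrica* at −0.84 as a dashed line.

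With limma, 405 of the 8730 genes passed (4.64%), 13 higher (0.149%) and 392 lower (4.49%) in *I. cylindrica*. The test takes the spread between the 3 *Arundinella* as that of *I. cylindrica* too. Median-of-ratios and equal-sum scaling both raise *I. cylindrica* against the 3 *Arundinella*. By itself this favours higher calls and works against lower ones. With median-of-ratios scaling 104 passed, 16 higher and 88 lower, and with equal sums 150 passed, 34 higher and 116 lower. All 13 genes that were higher as deposited also passed under both scalings, while 88 of the 392 lower genes did. The number was 61 without *A. anomala*, of which 2 were higher, 281 without *A. fluviatilis* and 259 without *A. pubescens*, and 0 with all 5 *Arundinella* libraries, where 3876 genes were above 0 throughout.

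The 13 higher genes were at 19.2 to 726 FPKM in *I. cylindrica* and at 0.55 to 41.7 FPKM in the 3 *Arundinella*, with log2 differences of 3.20 to 5.32. GRMZM2G048819 was at 245 FPKM in *I. cylindrica*, 8.44 in *A. anomala*, 4.16 in *A. fluviatilis* and 3.85 in *A. pubescens* (log2 difference 5.32 ± 0.74 SE; limma, adjusted p = 0.0148). GRMZM5G858454 was at 229 FPKM against 4.23, 2.74 and 9.32 (5.29 ± 0.80 SE; limma, adjusted p = 0.0169), and did not pass without *A. anomala* (limma, adjusted p = 0.0513). In the 4 libraries that the comparison did not use, 5 of the 13 were above 0 in *A. hirta*, 9 in *A. nepalensis*, 5 in *Bothriochloa ischaemum* and 6 in *Capillipedium parviflorum*. Over all 8730 genes the shares above 0 in these libraries were 50.1%, 89.2%, 45.0% and 38.0%.

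The 392 lower genes had a median of 1.52 FPKM in *I. cylindrica*, with 332 of them under 5 FPKM, against a median level of 49.6 FPKM in the 3 *Arundinella*. GRMZM2G105570 was at 0.74 FPKM in *I. cylindrica*, 597 in *A. anomala*, 608 in *A. fluviatilis* and 483 in *A. pubescens* (log2 difference −8.33 ± 0.71 SE; limma, adjusted p = 0.0138). GRMZM2G105644 was at 0.77 FPKM against 190, 567 and 884 (−8.02 ± 0.96 SE; limma, adjusted p = 0.0138). These lower genes were also below all 3 *Arundinella* for 63.5% in *A. nepalensis*, 82.7% in *A. hirta*, 88.8% in *B. ischaemum* and 92.9% in *C. parviflorum*. Over all 8730 genes the shares were 35.8%, 77.8%, 81.4% and 86.7%, so in 3 of the 4 libraries the excess over the background was under 10 percentage points.

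Genes of at least 100 FPKM in *I. cylindrica* and under 1 FPKM in all 3 *Arundinella* numbered 16, or 4.09% of its 391 genes of at least 100 FPKM. These values chose the genes and are given without a test. For 15 of the 16 all 3 *Arundinella* were listed at 0, and the remaining gene stood at 0.89 FPKM in *A. anomala*. GRMZM2G153184 was at 7673 FPKM and GRMZM5G804323 at 5403, both listed at 0 in the 3 *Arundinella*. There was 1 more gene above 1000 FPKM, 8 lay between 200 and 1000, and 5 between 103 and 200. Those 3 highest held 80.2% of the summed level of the set, which was 5.42% of the summed FPKM of *I. cylindrica*. The lowest member stood at 103 FPKM and the next gene below the limit at 82.5, and of genes of at least 100 FPKM the next by its *Arundinella* level reached 1 FPKM there.

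Sets of like size came from each *Arundinella* library. By the same rule with the libraries exchanged, 18 genes of *A. anomala*, 13 of *A. fluviatilis* and 23 of *A. pubescens* were at 100 FPKM or more and under 1 in the other 3 libraries. As a share of each library's genes of at least 100 FPKM these were 1.37%, 0.969% and 1.96%, against 4.09% in *I. cylindrica*.

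The remaining 4 libraries, which the rule did not use, divide the 16 genes. Above 0 were 7 of them in *A. nepalensis*, 2 in *A. hirta*, 6 in *B. ischaemum* and 4 in *C. parviflorum*. Over all 391 genes of at least 100 FPKM in *I. cylindrica*, 88.0%, 47.3%, 45.0% and 41.4% were above 0 in the same libraries. Within the genus, GRMZM2G153184 was at 757 FPKM in *A. nepalensis*, and GRMZM5G804323 at 172 in *A. hirta*. In all, 6 of the 16 were listed at 0 in all 4 of these libraries.

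Conversely, 207 of the 526 genes of at least 100 FPKM in all 3 *Arundinella* were under 1 FPKM in *I. cylindrica* (39.4%), 199 of them listed at 0. With the libraries exchanged, the count was 1 of 196 for *A. anomala*, 4 of 211 for *A. fluviatilis* and 7 of 202 for *A. pubescens*. These counts hold only genes of at least 100 FPKM in *I. cylindrica* as well, so they are no like baseline. By pairs, 47 to 80 genes of at least 100 FPKM in 1 *Arundinella* were under 1 FPKM in another. For *I. cylindrica* against each *Arundinella* the count was 511 to 600. The 3 *Arundinella* libraries were taken for their extent of listing, which by itself favours low counts. The 207 genes held 13.3% to 16.4% of the summed FPKM of the 3 *Arundinella*. Carbonic anhydrase 1, DiT1, Rubisco activase and actin were among them. GRMZM2G174984, the highest by mean, was listed at 0 in *I. cylindrica* and stood at 6094 FPKM in *A. anomala*, 3134 in *A. fluviatilis* and 15773 in *A. pubescens*. AC207722 was listed at 0 against 4542, 3685 and 12631 FPKM.

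In *A. hirta*, 33.8% of these 207 genes were listed at 0, close to the 36.1% of the other 319 genes of at least 100 FPKM in the 3 *Arundinella*. The shares were 7.73% and 4.39% in *A. nepalensis*, 52.7% and 42.9% in *B. ischaemum*, and 57.5% and 46.7% in *C. parviflorum*. The genes that were under 1 FPKM in *I. cylindrica* were thus listed at 0 somewhat more often in 3 of these 4 libraries, without a test of the difference.

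The order of genes by level was less alike between *I. cylindrica* and the 3 *Arundinella* than among those 3. Genus, library and extent of listing cannot be told apart in this contrast. Over the 8730 genes, Spearman's rho between *I. cylindrica* and the 3 *Arundinella* was 0.589, 0.562 and 0.577, and among the *Arundinella* it was 0.710 to 0.788. The 2 ranges did not overlap. Over all 24494 genes above 0 in at least 1 library, the means were 0.391 and 0.720. Of 3681 of the 8730 genes with several maize protein models, the model with the highest value was the same in *I. cylindrica* and an *Arundinella* library for 74.0% to 75.6%, and in pairs of *Arundinella* libraries for 77.2% to 80.3%.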

How the data were processed

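Leaf RNA of 8 grass species was sequenced with 1 library each, made with a TruSeq RNA kit per the labels' protocols. The authors deposited FPKM values on maize protein models in 1 table. RSEM is named in the submitters' processing notes; the sources used here do not give its version, the aligner or how fragments were tied to maize models. Because RSEM shares out fragments of similar sequences by estimate, members of a family can exchange values. Protein models were summed per gene here. Fold changes were taken on log2(FPKM + 1), and so understate changes of low genes. Genes above 0 in all 4 libraries were tested with limma 3.58.1 in R 4.3.3 (trend, two-sided, Benjamini-Hochberg adjusted p under 0.05). The fit was also run on simulated data. Those had the same spread in all 4 libraries and no overall shift, so they do not check these assumptions. Groups follow the species in the sample titles. Members, lists and gene names were chosen with earlier results of these data known. Named were the 26 listed genes, the 20 most abundant genes of *I. cylindrica*, and the 10 strongest of each kind, with at most 2 identifiers without a name printed per direction; the identifiers traced into *A. nepalensis* and *A. hirta* are among these. Alternatives covered pseudocount, scaling, filter, protein model and libraries; equal sums were added after seeing the data. Python 3.11.15 with pandas 2.3.3 was used.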

Additional observations from a re-analysis of the deposited data

How the results depend on the processing

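No paired analysis was possible because *I. cylindrica* has 1 library and replicate numbers only name the species. The number of genes passing limma (405) was 622 with a pseudocount of 0.1, 66 with quantile normalization, 104 with median-of-ratios scaling, 150 with equal sums, 3042 over the whole table, 0 with all 5 *Arundinella* libraries, and 61 to 281 when an *Arundinella* library was left out. With all 5 libraries 464 genes had an unadjusted limma p under 0.05. The median difference turned to 0.14 with quantile normalization, 0.021 with median-of-ratios scaling and 0.23 with equal sums. Genes beyond the *Arundinella* range numbered 1404 with all 5 libraries and 1666 at 2 log2 units. The 16 genes high in *I. cylindrica* became 9 with all 5 *Arundinella* libraries. The 207 genes of the opposite kind became 54 with all 5, 576 from 50 FPKM and 85 from 200 FPKM, and 251 to 332 (the latter without *A. pubescens*) when a library was left out. The mean rho of *I. cylindrica* was 0.391 over all genes above 0 somewhere.

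Differences that changed sign were of genes that had not passed. With equal sums they were 0.16 for PEP carboxylase kinase, 0.70 for the less abundant PPDK model, 1.02 for the other, 1.08 for the triose phosphate translocator and 0.54 for glyceraldehyde-3-phosphate dehydrogenase. With median-of-ratios scaling they were 0.50, 0.78, 0.85 and 0.31 for the last 4, and quantile normalization gave 0.76 for the less abundant PPDK model. With all 5 libraries the triose phosphate translocator was at 0.12 and the abundant PPDK model at 3.07, which was at 0.11 by its highest protein model. Leaving out a library gave −0.20 to 1.52 for PEP carboxylase, −0.32 to 0.11 for the translocator and −0.72 to 0.26 for the abundant PPDK model. The cause was not tested. Unknown depth limits every low value.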
